A study of Arabidopsis thaliana with 16 samples.

Results

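The response of *fer* seedlings to arabidopside A was followed in 8 libraries, the 4 *fer* control and the 4 *fer* arabidopside A libraries, out of 16 in the series. The other 8 are the same pair of treatments in WT. *fer* seedlings carried the fer-4 allele of FERONIA, and WT was the accession Col-0. All seedlings were 10 days old and stood for 2 h in liquid medium before treatment. The treated groups then received arabidopside A at 12.5 µM for 2 h and the control groups did not, and the labels name no vehicle. Each library is made from the RNA of whole seedlings by a kit that reads the 3′ ends of polyadenylated transcripts, so a value is the number of reads assigned to a gene, given below as CPM, the count relative to the TMM-scaled total of its library. Shoots and roots were not separated, and fewer cells of a type and less RNA per cell cannot be told apart. Same-numbered *fer* libraries were taken as pairs, because their departures from the group means ran together, as did those of some unlike numbers.

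FERONIA (FER) is a receptor kinase of the plasma membrane that binds RALF peptides and pectin and takes part in cell wall sensing, growth and immunity. Arabidopside A is a plastid galactolipid whose fatty acyl chains have been converted to 12-oxo-phytodienoic acid (OPDA) and its shorter homologue, and plants form it quickly on wounding. Free OPDA is the precursor of jasmonic acid, and it is also a reactive electrophile that induces detoxification genes. The conjugate jasmonoyl-isoleucine brings JAZ repressors to the receptor COI1 for degradation, which frees bHLH factors such as MYC2 to activate target genes, the JAZ genes among them.

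In the *fer* libraries, FER itself had 3 to 10 counts in the controls and 0 to 14 with arabidopside A, against 356 to 793 counts in the WT libraries. Totals were 2843653 to 4966370 counts in the *fer* controls and 4994304 to 26358335 with arabidopside A, where the treated library of pair 2 stands apart. The departures of control and treated *fer* libraries correlated at 0.61, 0.366, 0.186 and 0.374 across genes for numbers 1 to 4. Some unlike numbers correlated as well, control 1 with treated library 2 at 0.492, control 2 with treated library 1 at 0.503 and control 4 with treated library 3 at 0.308. Control 3 correlated at 0.694 with treated library 4, above its value for treated library 3. Between numbers 1 or 2 and numbers 3 or 4, all correlations were negative, from -0.625 to -0.201. These values do not tell pairing by number from a split of libraries 1 and 2 against 3 and 4. Same-numbered WT libraries, which the fit blocks too, correlated at -0.041 to 0.011. Summed CPM of 11 photosynthesis genes used as shoot markers ranged from 5889 to 12400 in the *fer* controls and from 6282 to 11018 with arabidopside A, below the 15132 to 20017 of WT. For 10 root markers the summed CPM ran from 284 to 371 in the *fer* controls and from 201 to 349 with arabidopside A, and all 10 were measurable.

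Arabidopside A raised 160 genes and lowered 27 in *fer* among 18132 genes tested, at an adjusted p under 0.05 in edgeR's quasi-likelihood test with Benjamini-Hochberg adjustment. These are 0.882% and 0.149% of the genes tested, and 1.03% together. The median log2 fold change was 0.99 among the raised genes and -0.73 among the fallen genes. Each of the 160 raised genes was higher in all 4 pairs, and 26 of the 27 fallen genes were lower in all 4, where 8.07% and 7.88% of all genes tested were so. Of the raised genes 89 had all treated libraries above all controls, against 1.97% of all genes. Only 5 of the 27 fallen genes had all treated libraries below all controls, against 1.19%. The genes were called by a test on these same pairs. Agreement among the pairs thus follows in large part from the selection and is no separate support for the calls.

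The count of 187 called genes rests on how the libraries were modelled. The fit used the 16 libraries of both genotypes for 1 estimate of the spread, with each same-numbered pair as a block. Within groups, the chi-square per gene between 2 libraries, about 1 for sampling noise alone, was 2.71 to 4.52 in WT. In *fer* it was 6.43 to 40.6 among controls and 8.8 to 75.1 among treated libraries, before any blocks. The value also grows with depth, and 75.1 involves treated library 2, the deepest. The *fer* controls, whose totals reached no higher than those of WT, exceeded WT as well. The shared estimate thus also draws on libraries of less spread. The part of this in the count was not tested. The 8 *fer* libraries alone, with the same blocks, gave 29 genes, all raised and all among the 187. Without the blocks the 16 libraries gave 69 genes, and the 8 *fer* libraries alone gave 0, with 804 genes at an unadjusted p under 0.05. Leaving out pair 3 raised the count to 876, while leaving out pair 1 or pair 2 lowered it to 64 and 60. With blocks for the *fer* pairs alone and none for WT, a fit added after seeing the data, 353 genes were called, 186 of them among the 187. Among the 90 genes called in *fer* whose values were followed through every alternative, 11 stayed called in every fit that tested them except that of the *fer* libraries without blocks, which called none. They were FAMT, TAT3, CLH1, AT4G24350, GSTU5, GSTU26, BGLU24, ANN3, THAS1, CYP81F4 and AT5G35940, and all 11 rose.

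**Figure D1:**
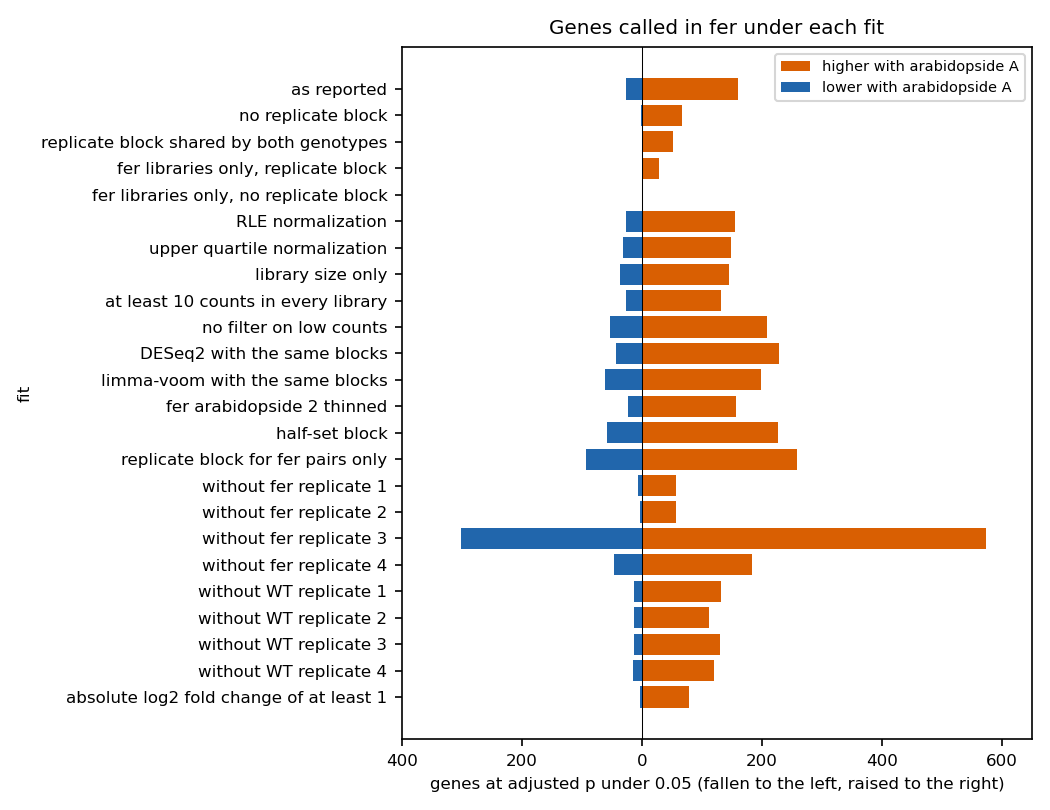
Genes called in *fer* at an adjusted p under 0.05 under each fit, with raised genes as bars to the right and fallen genes as bars to the left of 0. The reported fit gives 160 raised and 27 fallen genes, the fit without pair 3 gives 574 and 302, and the *fer* libraries alone without blocks give 0.

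The differences of pair 3 were the least like those of the other pairs. Across genes, the log2 differences of pair 3 correlated at -0.26 with those of pair 4, at 0.01 with pair 2 and at 0.09 with pair 1, while pairs 2 and 4 correlated at 0.30. The 6 such correlations in WT ran from 0.27 to 0.37. Among 603 genes that differed by at least 0.5 on the log2 scale in every *fer* pair, 130 were higher in all 4 and 28 lower in all 4, and 120 were lower in pair 3 while higher in the other 3. In WT, 24 of 895 such genes were lower in pair 3 alone and 525 were higher in all 4. These correlations are across genes of 8 libraries, and genes are not independent replicates. Control 3, of pair 3, and treated library 4, of pair 4, ran together at 0.694 as given above. The part of this in the values of both pairs was not tested.

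Jasmonate-responsive promoters often hold a G-box, CACGTG, the hexamer bound by MYC2 and related bHLH proteins. In the window from 250 bases before to 50 after the annotated gene start (TAIR10.1, RefSeq), CACGTG, which reads the same on both strands, occurred in 25 of the 160 raised genes (15.6%), in 0 of the 27 fallen genes and in 1591 of 18131 genes tested (8.78%). TGACG, searched on both strands, occurred in 25% of the raised and 24% of all genes tested, and GCCGCC in 3.12% and 2.76%. These are letter matches, and binding was not measured. The raised genes JAZ5, JAZ9, JAZ10, TAT3, CLH1, AOC1, OPR3 and FAMT hold no CACGTG in this window. The 140 bases before the gene start are shown for 6 raised genes whose values follow, chosen because each holds a match there, written 5′ to 3′ on the gene's strand with CACGTG in capitals.
PGL5 (chr5:8338033-8338172, minus strand): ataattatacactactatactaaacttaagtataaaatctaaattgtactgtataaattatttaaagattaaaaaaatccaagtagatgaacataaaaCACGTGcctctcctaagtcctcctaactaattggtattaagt
RAP2.6 (chr1:16263665-16263804, plus strand): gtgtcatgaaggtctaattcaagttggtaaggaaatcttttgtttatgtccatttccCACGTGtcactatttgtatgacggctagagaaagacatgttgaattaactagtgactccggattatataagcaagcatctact
ML3 (chr5:8031025-8031164, plus strand): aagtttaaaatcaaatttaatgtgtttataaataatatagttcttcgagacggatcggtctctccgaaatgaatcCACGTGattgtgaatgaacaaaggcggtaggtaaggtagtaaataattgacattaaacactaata
AT5G23830 (chr5:8033525-8033664, plus strand): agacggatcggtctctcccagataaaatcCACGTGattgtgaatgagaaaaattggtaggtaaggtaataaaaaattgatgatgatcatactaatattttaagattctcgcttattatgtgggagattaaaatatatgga
CSLA10 (chr1:8519985-8520124, minus strand): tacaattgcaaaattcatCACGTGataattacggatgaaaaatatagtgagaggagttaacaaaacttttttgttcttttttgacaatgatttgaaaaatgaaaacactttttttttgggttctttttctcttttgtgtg
AOS (chr5:17099596-17099735, minus strand): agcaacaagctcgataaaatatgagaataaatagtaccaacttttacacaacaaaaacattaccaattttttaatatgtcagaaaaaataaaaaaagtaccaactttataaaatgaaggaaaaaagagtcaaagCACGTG
The match begins 42 bases before the start in PGL5, 83 in RAP2.6, 65 in ML3, 111 in AT5G23830, 122 in CSLA10 and 6 in AOS. ML3 and AT5G23830, neighbours on chromosome 5 that code for related proteins, share an unbroken run of 21 bases around it, aatcCACGTGattgtgaatga.

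Among JAZ repressors, 3 of the 12 measured genes rose in *fer* (DESeq2 6, limma-voom 4) and none fell, against 11 of 12 raised in WT, where 515 of all genes tested rose (2.84%) and 69 fell (0.381%), 3.22% together. Their median log2 fold change was 0.70 in *fer* and 2.75 in WT, where the medians of all genes tested were -0.0088 and 0.0034. JAZ10, the JAZ gene with the largest rise past the test, had 31.4, 22.6, 46.03 and 24.00 CPM in *fer* controls 1 to 4 and 137, 124, 86.5 and 52.6 with arabidopside A. Every treated library was above every control, and the gap was narrowest between control 3 and treated library 4. Its log2 fold change was 1.65 ± 0.23 (SE, n = 4 pairs, edgeR adjusted p = 0.00424). Here and below, the SE comes from the fit of 16 libraries and draws on the spread of both genotypes. It is not the error over the 4 pair values and can be smaller. JAZ10 overlaps an annotated gene on the opposite strand by 71 bases, and the counting is not stated to use strand.

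JAZ5 stood at 59.2, 51.5, 83.4 and 71.7 CPM in the controls and 119, 143, 113 and 111 in treated libraries 1 to 4, again without overlap. It rose by 0.88 ± 0.14 on the log2 scale (edgeR adjusted p = 0.00452), with pair values of 1.01, 1.47, 0.44 and 0.63, the smallest in pair 3. JAZ9 rose by 1.498 ± 0.28 (edgeR adjusted p = 0.0433), from 73.4, 41.96, 63.4 and 31.3 CPM to 218, 185, 94.5 and 105. JAZ1, the most abundant in reads of the JAZ genes given here, had 1189.8, 2008, 1564 and 1537 CPM in the controls and 1731, 1753, 1998 and 2307 with treatment. Its groups overlapped, pair 2 went down, and it did not pass the test (log2 fold change 0.32 ± 0.15, edgeR adjusted p = 0.425). JAZ6 was higher in every treated library than in any control yet missed the threshold (edgeR adjusted p = 0.0543).

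Jasmonate biosynthesis genes rose in 3 of 16 cases in *fer* (median log2 fold change 0.39), against 9 of 16 in WT (median 0.94). AOC1, an allene oxide cyclase that forms OPDA, had 92.97, 52.2, 67.8 and 34.9 CPM in the controls and 162, 164, 105 and 109.8 with arabidopside A. The groups did not overlap and AOC1 rose by 1.17 ± 0.17 on the log2 scale (SE, n = 4 pairs, edgeR adjusted p = 0.00289). AOS, the allene oxide synthase one step earlier, whose promoter is shown above, rose by 0.64 ± 0.12 (edgeR adjusted p = 0.0136). Its levels were 800.5, 756, 471 and 438 CPM and 1432, 1154, 775 and 567 CPM, so the groups overlapped and libraries 1 and 2 were above 3 and 4 under both treatments. The summed shoot markers had the same split, with 12400, 9073, 5889 and 7893 CPM in controls 1 to 4 and 11018, 9841, 7308 and 6282 with arabidopside A, and their part in the levels of AOS was not tested.

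OPR3, the peroxisomal reductase of OPDA, rose by 0.56 ± 0.11 on the log2 scale (edgeR adjusted p = 0.0212), from 219, 191, 255 and 181 CPM to 301, 324, 309 and 303, with no overlap. AOC2, a close copy of AOC1 with which it may share reads, had a log2 fold change of 0.46 ± 0.12 and did not pass (edgeR adjusted p = 0.102). LOX2, the plastid lipoxygenase at the start of the pathway, was at 569.6, 739, 287 and 432 CPM in the controls and 1001, 895, 561 and 424 with arabidopside A. Pair 4 did not go up, and LOX2 did not pass the test (edgeR adjusted p = 0.278).

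Genes of jasmonate turnover rose in 4 of 9 cases in *fer* (DESeq2 8, limma-voom 3), with a median log2 fold change of 1.22 (WT 6 of 9, median 1.94). ILL6 and IAR3 are amidohydrolases that split jasmonoyl-isoleucine. ILL6 went from 23.7, 23.98, 32.9 and 17.01 CPM to 57.5, 52.97, 46.2 and 46.1, all treated libraries above all controls, a rise of 1.07 ± 0.16 on the log2 scale (edgeR adjusted p = 0.00214). IAR3 rose by 0.94 ± 0.16 (edgeR adjusted p = 0.0078), although its groups overlapped because control 3 stood at 312 CPM. JOX2, which hydroxylates jasmonic acid, rose by 1.14 ± 0.23 (edgeR adjusted p = 0.0422). For these 3 genes pair 3 had the smallest pair value and control 3 the highest control level.

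ST2A, a sulfotransferase acting on hydroxylated jasmonate, had 510.0, 279, 349.8 and 274 CPM in the *fer* controls and 863, 1214, 967 and 547 with arabidopside A, with no overlap. It rose by 1.33 ± 0.24 on the log2 scale in *fer* (edgeR adjusted p = 0.0302), while the WT log2 fold change was 0.51 (edgeR adjusted p = 0.461). The responses differed by 0.82 (95% interval 0.02 to 1.63), which did not pass after adjustment (edgeR adjusted p = 0.679). CYP94C1, an oxidase of jasmonoyl-isoleucine, did not pass in *fer* (log2 fold change 0.47 ± 0.18, edgeR adjusted p = 0.335).

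Of 9 measured genes of jasmonate perception and the bHLH factors, 1 rose in *fer*. This was JAM1, a bHLH repressor of jasmonate responses, at 20.8, 20.1, 24.9 and 17.3 CPM in the controls and 48.9, 40.6, 31.7 and 30.6 with arabidopside A, a rise of 0.85 ± 0.18 on the log2 scale (edgeR adjusted p = 0.0236). MYC2 had a log2 fold change of 0.55 ± 0.15 and did not pass (edgeR adjusted p = 0.105). An annotated gene lies across MYC2 on the opposite strand, so its reads cannot be assigned without strand.

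Outputs known from wounding and methyl jasmonate rose in 6 of 14 cases in *fer* (median log2 fold change 0.77) and in 11 of 14 in WT (median 1.77). TAT3, a tyrosine aminotransferase gene, had 92.6, 98.4, 159 and 110.3 CPM in the controls and 214, 366, 396 and 268 with arabidopside A. All treated libraries were above all controls, and TAT3 rose by 1.42 ± 0.13 on the log2 scale (SE, n = 4 pairs, edgeR adjusted p = 2.25e-05). CLH1, a chlorophyllase, went from 243, 175, 149 and 125 CPM to 692, 619, 345 and 274. It rose by 1.42 ± 0.15 (edgeR adjusted p = 0.000164), with libraries 1 and 2 above 3 and 4 in both groups.

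AT4G24350, annotated as a phosphorylase superfamily protein, had 164, 165, 156 and 147 CPM in the controls, which lay close together, and 420.2, 467, 381 and 240.3 with arabidopside A. It rose by 1.22 ± 0.14 on the log2 scale (edgeR adjusted p = 0.000217), and its neighbour AT4G24340, of the same family, by 1.03 ± 0.18 (edgeR adjusted p = 0.00735). TPS04, the geranyllinalool synthase of volatile homoterpene formation, rose by 1.39 ± 0.26 (edgeR adjusted p = 0.0221) and RAP2.6, an ERF-type factor, by 1.08 ± 0.14 (edgeR adjusted p = 0.000556). RAP2.6 was at 57.5, 59.6, 98.3 and 65.3 CPM in the controls and at 136, 164, 140.0 and 142 with arabidopside A, so the treated libraries lay in a narrow band above all controls. VSP2, a vegetative storage protein, did not pass in *fer* (log2 fold change 0.58 ± 0.17, edgeR adjusted p = 0.141), though all 4 pairs were higher.

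The smallest adjusted p in *fer* belonged to FAMT, annotated as a farnesoic acid carboxyl-O-methyltransferase. It had 132, 138, 127 and 71.7 CPM in *fer* controls 1 to 4 and 384, 489, 473 and 252 in the treated libraries of the same numbers. Pair differences were 1.53, 1.82, 1.898 and 1.81 on the log2 scale, the fitted value was 1.77 ± 0.13 (SE, n = 4 pairs), and the edgeR adjusted p was 3.89e-06. Its neighbour AT3G44870, a methyltransferase gene of the same superfamily with which it may share reads, rose by 2.61 ± 0.37 (edgeR adjusted p = 0.00207) from 1.96, 3.17, 6.45 and 0.911 CPM to 26.9, 19.9, 18.03 and 9.001. BGLU24, a beta-glucosidase gene, rose by 2.62 ± 0.24 (edgeR adjusted p = 5.99e-05) from 8.24, 5.64, 10.9 and 9.72 CPM to 80.3, 61.1, 50.1 and 29.8, with no overlap. PGL5, a 6-phosphogluconolactonase of the oxidative pentose phosphate pathway, rose by 2.31 ± 0.21 (edgeR adjusted p = 2.79e-05). Its groups overlapped, since levels went from 30.99, 13.4, 11.8 and 3.04 CPM to 133, 99.5, 38.9 and 22.6 and pair 4 was lowest under both treatments.

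**Figure D2:**
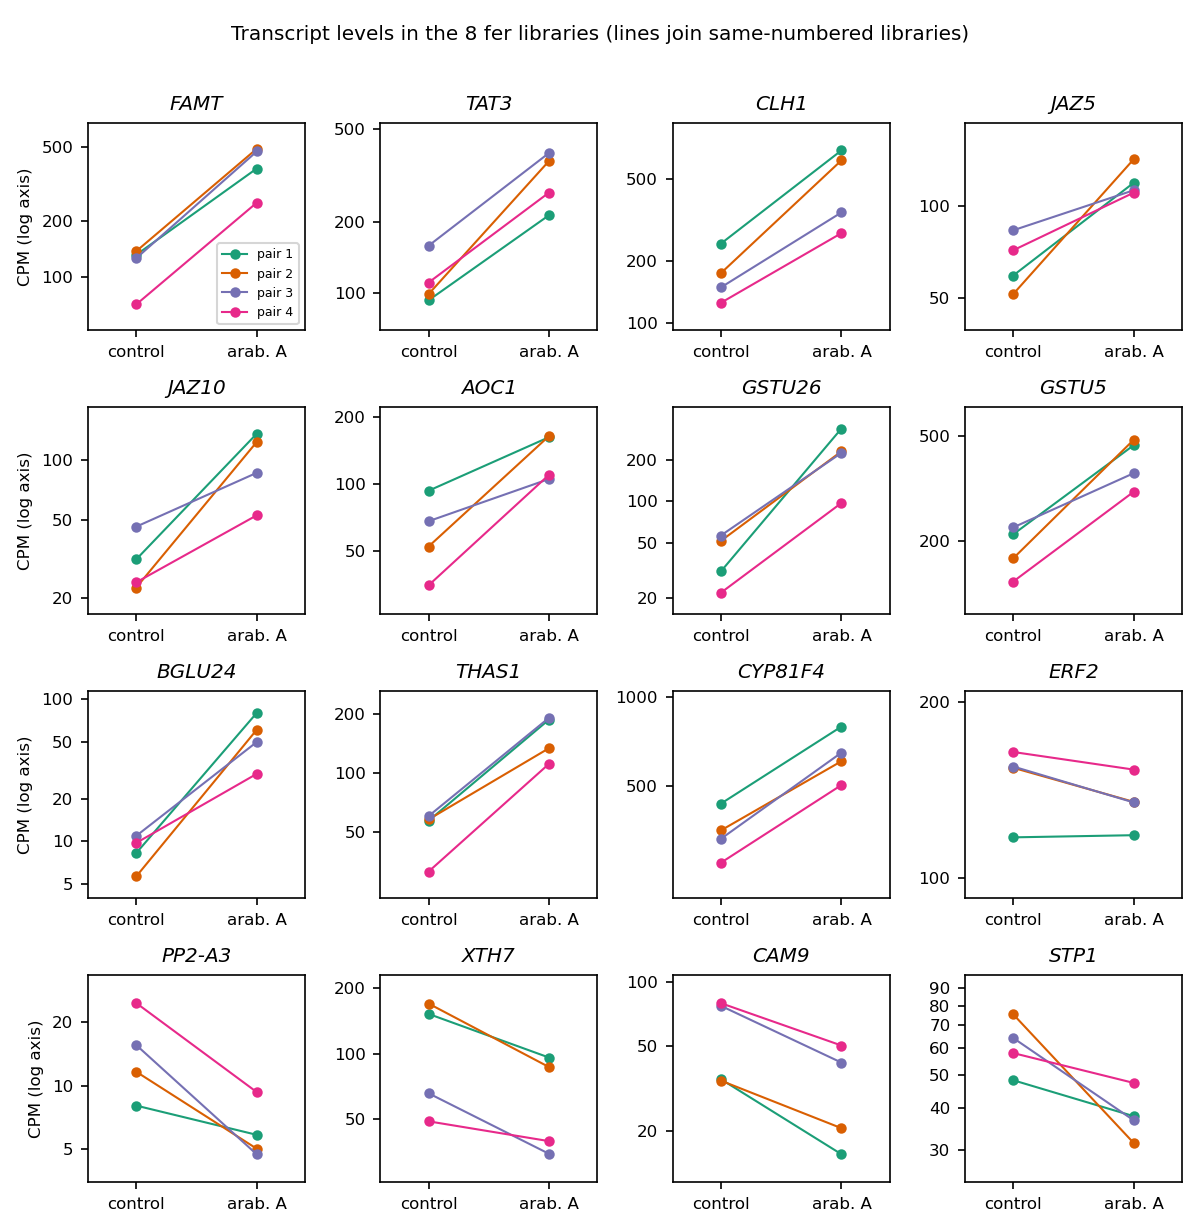
CPM on a log axis in the 8 *fer* libraries for 16 genes, with lines joining the control and arabidopside A libraries of the same number. The 11 panels from FAMT to CYP81F4 go up in all 4 pairs, ERF2 stays within 117 to 164 CPM, and PP2-A3, XTH7, CAM9 and STP1 go down in all 4 pairs.

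Genes known to answer OPDA and other reactive electrophiles rose in 4 of 27 cases in *fer* (median log2 fold change 0.60, DESeq2 9 and limma-voom 4 genes called) and in 8 of 27 in WT (median 1.06). The median over these genes was 0.63, 0.92, -0.44 and 1.54 in *fer* pairs 1 to 4, below 0 in pair 3 and highest in pair 4. Control 3 and treated library 4, whose departures correlated at 0.694, enter these values on opposite sides. Their part in both medians was not tested. The 4 were tau-class glutathione S-transferases, which conjugate electrophiles to glutathione. GSTU5 had 212, 172, 225 and 141 CPM in the controls and 461, 483, 361 and 307 with arabidopside A and rose by 1.1001 ± 0.12 on the log2 scale (edgeR adjusted p = 0.000164). GSTU7 rose by 1.26 ± 0.19 (edgeR adjusted p = 0.00487), GSTU8 by 1.18 ± 0.23 (edgeR adjusted p = 0.038) and GSTU22 by 1.67 ± 0.36 (edgeR adjusted p = 0.0302). GSTU5 and GSTU7 stand in a row of related genes that may share reads.

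Outside that list, GSTU26 had 31.2, 51.8, 56.7 and 21.9 CPM in the controls and 336, 230.0, 224 and 97.4 with arabidopside A. All treated libraries were above all controls, and GSTU26 rose by 2.43 ± 0.21 on the log2 scale (SE, n = 4 pairs, edgeR adjusted p = 7.02e-05). MSRB7, a methionine sulfoxide reductase, which repairs oxidised methionine, rose by 2.08 ± 0.35 (edgeR adjusted p = 0.0378), and control 3 at 283 CPM lay apart from the other controls, which were between 57.8 and 90.04 CPM. Named after their values were seen are MSRB6 with a rise of 1.34 ± 0.16 (edgeR adjusted p = 0.000257), and GSH2, glutathione synthetase, with a rise of 0.53 ± 0.11 (edgeR adjusted p = 0.0285). Of 11 heat shock protein genes measured, HSP90-1 rose, by 0.48 ± 0.10 (edgeR adjusted p = 0.0316), and the others did not pass.

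Triterpene synthases and the cytochrome P450 genes beside them rose together in *fer*. These genes lie in small clusters that make thalianol, marneral and arabidiol derivatives and are known from roots. The 9 cluster genes were put together after their values were seen, so their count is a description. In *fer* 8 of the 9 rose and none fell, with a median log2 fold change of 1.59, and in WT all 9 rose with a median of 1.79. Pair medians were 1.900, 1.404, 1.443 and 0.990, so pair 3 lay among the others here. None of the 9 differed between genotypes in edgeR, DESeq2 or limma-voom after adjustment, and 4 did at an unadjusted p under 0.05.

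THAS1, thalianol synthase, had 57.3, 58.2, 60.5 and 31.6 CPM in the controls and 187, 134, 191 and 112 with arabidopside A, without overlap. It rose by 1.596 ± 0.13 on the log2 scale (SE, n = 4 pairs, edgeR adjusted p = 1.23e-05), with pair values of 1.704, 1.199, 1.66 and 1.81. In the same cluster CYP708A2 rose by 1.59 ± 0.31 (edgeR adjusted p = 0.0358) and CYP705A5 by 1.09 ± 0.15 (edgeR adjusted p = 0.00073), while the acyltransferase gene AT5G47980 did not pass (log2 fold change 0.75 ± 0.24, edgeR adjusted p = 0.206). MRN1, marneral synthase, was at 9.02, 8.11, 6.23 and 2.43 CPM in the controls and at 36.4, 23.1, 22.2 and 7.896 with arabidopside A. It rose by 1.78 ± 0.20 (edgeR adjusted p = 0.000164), and pair 4 was lowest in both groups.

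Beside MRN1, CYP71A16 rose by 1.43 ± 0.21 (edgeR adjusted p = 0.00234) and CYP705A12 by 1.605 ± 0.16 (edgeR adjusted p = 7.02e-05). PEN1, arabidiol synthase, went from 5.88, 8.46, 13.6 and 8.51 CPM to 38.8, 31.8, 32.03 and 17.2, a rise of 1.72 ± 0.27 (edgeR adjusted p = 0.00487). CYP705A1, its neighbour, rose by 1.35 ± 0.21 (edgeR adjusted p = 0.0031). Of 10 root markers 0 passed the edgeR test in *fer*, 1 was lower at an unadjusted p under 0.05, and DESeq2 and limma-voom each called 1. Their median log2 fold change was -0.18, with pair medians of 0.297, -0.276, 0.246 and -1.499. The smallest triterpene median and the lowest root marker median both came from pair 4, and the part of root share in the level was not tested.

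Indole glucosinolate genes rose in 3 of 19 cases in *fer* (median log2 fold change 0.10) and in 9 of 19 in WT (median 0.71). The 3 were MYB34, an activator of the pathway, CYP81F4, which hydroxylates the indole ring, and IGMT5, a methyltransferase that acts after it. CYP81F4 had 437, 355, 333 and 276 CPM in the controls and 793, 607, 648 and 505 with arabidopside A. It rose by 0.87 ± 0.10 on the log2 scale (SE, n = 4 pairs, edgeR adjusted p = 0.000164), and the lowest treated library was above the highest control. CYP81F4 shares 2140 bases with a gene on the opposite strand. IGMT5 rose by 0.895 ± 0.12 (edgeR adjusted p = 0.000556) and MYB34 by 1.27 ± 0.20 (edgeR adjusted p = 0.00359).

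MYB34 had a WT log2 fold change of 0.49 that did not pass (edgeR adjusted p = 0.322), and the difference of 0.78 between the genotypes (95% interval 0.08 to 1.48) did not pass either (edgeR adjusted p = 0.567). None of 12 aliphatic glucosinolate genes and none of 11 tryptophan biosynthesis genes passed in *fer* in edgeR, DESeq2 or limma-voom, with 0 and 2 at an unadjusted p under 0.05, against 4 and 6 raised in WT. Sulfate assimilation genes rose in 3 of 10 cases (median log2 fold change 0.52), against 9 of 10 in WT (median 0.93). They were APR3, APS reductase, with a rise of 0.96 ± 0.15 (edgeR adjusted p = 0.00351), APS1, ATP sulfurylase, with 0.57 ± 0.13 (edgeR adjusted p = 0.0361), and SIR, sulfite reductase, with 0.57 ± 0.13 (edgeR adjusted p = 0.0486). APR3 was at 115, 99.8, 183 and 115 CPM in the controls and 192, 232, 243 and 325 with arabidopside A, with no overlap and the smallest step in pair 3.

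ER bodies are compartments of the endoplasmic reticulum that store beta-glucosidases used in defence. Of 17 measured genes of this system 7 rose in *fer* and none fell (median log2 fold change 0.52), against 14 raised in WT (median 1.06), and the median of each *fer* pair lay between 0.50 and 0.61. NAI1, the bHLH factor needed for ER body formation, went from 51.4, 52.9, 48.7 and 30.1 CPM to 103, 80.9, 65.6 and 60.95, with no overlap. It rose by 0.76 ± 0.13 on the log2 scale (edgeR adjusted p = 0.00782). The membrane proteins MEB1 and MEB2 rose by 0.77 ± 0.12 (edgeR adjusted p = 0.00428) and 0.97 ± 0.16 (edgeR adjusted p = 0.00543). BGLU22, an ER body beta-glucosidase, was at 289, 371, 300.0 and 221 CPM in the controls and at 746, 561, 501 and 399.5 with arabidopside A, a rise of 0.89 ± 0.14 (edgeR adjusted p = 0.00355).

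The remaining 3 were GLL22, a GDSL lipase-like gene, with a rise of 0.82 ± 0.14 (edgeR adjusted p = 0.00593), the lectin gene JAL31 with 0.71 ± 0.11 (edgeR adjusted p = 0.00257) and ML3, which codes for an MD-2-related lipid recognition protein, with 0.999 ± 0.14 (edgeR adjusted p = 0.00138). ML3 had 204, 142, 169 and 147 CPM in the controls and 461, 394, 278 and 228 with arabidopside A, all treated libraries above all controls. Its neighbours AT5G23830 and AT5G23840, named after their values were seen, rose by 0.896 ± 0.16 (edgeR adjusted p = 0.011) and 0.77 ± 0.15 (edgeR adjusted p = 0.0194). The 3 genes code for related proteins and may share reads. AT5G35940, a mannose-binding lectin superfamily gene, was at 25.1, 21.2, 18.7 and 14.6 CPM in the controls and at 91.01, 68.9, 53.4 and 40.1 with arabidopside A, a rise of 1.64 ± 0.16 (edgeR adjusted p = 3.47e-05) with no overlap.

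**Figure D3:**
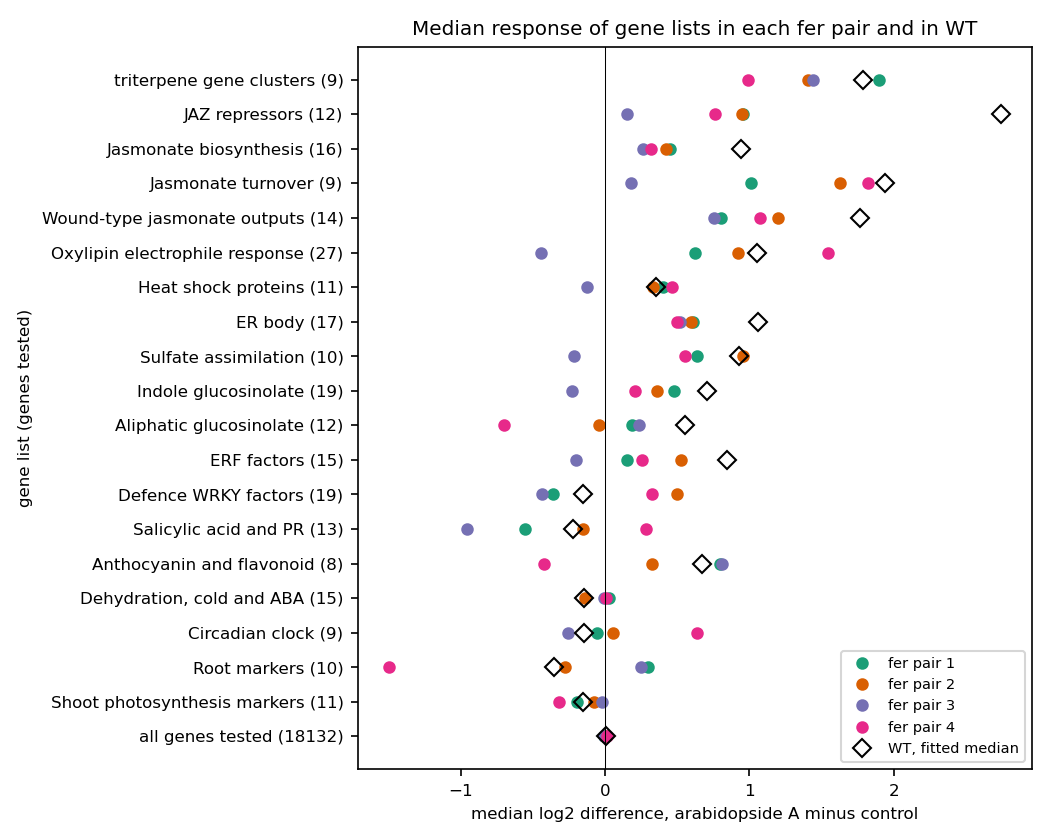
Median log2 difference between arabidopside A and control for 19 gene lists and for all genes tested, with 1 coloured point for each *fer* pair and an open diamond for the fitted WT median. JAZ repressors lie at 0.15 to 0.96 in the *fer* pairs against 2.75 in WT, triterpene cluster genes, grouped after their values were seen, lie at 0.99 to 1.900 against 1.79, and pair 3 is the lowest of the 4 for the electrophile and sulfate lists.

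Annexins, calcium-dependent proteins that bind phospholipids, were looked at after their values were seen. Of 8 annexin genes 5 could be tested and 3 rose in *fer*. ANN3 had 13.9, 11.3, 10.9 and 6.68 CPM in the controls and 47.6, 34.9, 25.6 and 14.8 with arabidopside A, all treated libraries above all controls, a rise of 1.47 ± 0.18 on the log2 scale (edgeR adjusted p = 0.000232). ANN4, next to ANN3 on chromosome 2, rose by 1.23 ± 0.14 (edgeR adjusted p = 0.000164) and ANN2 by 0.61 ± 0.13 (edgeR adjusted p = 0.0244). Also named after their values were seen are PSK2, a precursor of the peptide phytosulfokine, with a rise of 1.11 ± 0.16 (edgeR adjusted p = 0.00214), PROPEP4, a precursor of an elicitor peptide, with 1.14 ± 0.23 (edgeR adjusted p = 0.0194), and NRT1.8, a nitrate transporter, with 0.96 ± 0.14 (edgeR adjusted p = 0.00219).

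Of the 160 genes raised in *fer*, 140 (87.5%) were among the 515 raised in WT, of which they made up 27.18%. Over all genes tested, 2.84% rose in WT, and the median WT log2 fold change was 0.0034. Of the 160 genes 159 had a positive WT value. Both lists come from 1 fit with a shared estimate of the spread, so they are not independent. The other 20 of the 160 did not pass in WT, which does not show that they responded in *fer* alone. CSLA10, a cellulose synthase-like gene, had 5.100, 2.12, 2.67 and 1.52 CPM in the *fer* controls and 19.7, 14.3, 6.83 and 4.11 with arabidopside A and rose by 1.89 ± 0.31 on the log2 scale (edgeR adjusted p = 0.0049). Its WT log2 fold change was 0.42, and the difference of 1.48 (95% interval 0.34 to 2.61) did not pass (edgeR adjusted p = 0.417). LOX5, a lipoxygenase gene named after its values were seen, rose by 1.86 ± 0.34 (edgeR adjusted p = 0.00975) from 2.55, 0.705, 2.67 and 2.13 CPM to 9.16, 8.35, 7.18 and 5.37, and its difference from WT of 1.48 did not pass (edgeR adjusted p = 0.435).

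Among the 27 fallen genes PP2-A3, a phloem protein gene, had the largest fall, from 8.04, 11.6, 15.6 and 24.6 CPM in controls 1 to 4 to 5.85, 5.02, 4.73 and 9.32 with arabidopside A, a log2 fold change of -1.21 ± 0.27 (SE, n = 4 pairs, edgeR adjusted p = 0.0341). The groups overlapped, because control 1 was below treated library 4. CAM9, a calmodulin-like gene, went from 35.1, 34.6, 77.6 and 79.9 CPM to 15.6, 20.7, 42.00 and 50.5. Libraries 1 and 2 were below 3 and 4 under both treatments, so the groups overlapped although every pair fell, and the log2 fold change was -0.85 ± 0.15 (edgeR adjusted p = 0.0079).

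XTH7, a xyloglucan-modifying enzyme of the cell wall, showed the opposite split, with 153, 170.3, 65.8 and 48.9 CPM in the controls and 96.1, 86.9, 34.7 and 39.6 with arabidopside A. Its log2 fold change was -0.73 ± 0.13 (edgeR adjusted p = 0.011). EXPA11, an expansin, which loosens walls, had -1.01 ± 0.21 (edgeR adjusted p = 0.0254), and AT5G48900, a pectin lyase-like gene, -1.12 ± 0.23 (edgeR adjusted p = 0.0235). For both, pair 3 moved by less than 0.25 on the log2 scale. AT4G32460, a DUF642 protein gene, fell in all 4 pairs, with a log2 fold change of -0.95 ± 0.15 (edgeR adjusted p = 0.00351). Its relative DGR2 and XTH4, named after their values were seen, had -0.67 ± 0.11 (edgeR adjusted p = 0.00593) and -0.63 ± 0.14 (edgeR adjusted p = 0.0328). AT4G32460 and DGR2 each overlap a gene on the opposite strand, as do GSTU7, AT4G24350, MEB1 and STP1 by 200 to 636 bases.

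CAD9, a cinnamyl alcohol dehydrogenase gene, had 141, 201, 36.7 and 54.4 CPM in the controls and 88.5, 64.8, 33.6 and 27.3 with arabidopside A, a log2 fold change of -0.88 ± 0.18 (edgeR adjusted p = 0.0278). STP1, a hexose-proton symporter named after its values were seen, was one of the 5 fallen genes without overlap, at 48.3, 75.5, 64.3 and 58.02 CPM and 37.8, 31.5, 36.8 and 47.4 CPM (log2 fold change -0.68 ± 0.15, edgeR adjusted p = 0.0302). Of the 27 fallen genes 8 (29.63%) were among the 69 that fell in WT, of which they made up 11.59%. Over all genes tested, 0.381% fell in WT. Leaving out *fer* pair 2 left 4 fallen genes, leaving out pair 1 left 7, and the fit without blocks left 2.

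No gene passed in *fer* among 15 ERF factors, 8 defensin and ethylene-jasmonate outputs, 13 salicylic acid genes, 19 defence WRKY factors, 5 camalexin genes, 8 anthocyanin genes, 15 dehydration, cold and abscisic acid genes, 9 clock genes or 3 touch genes. With the aliphatic glucosinolate and tryptophan genes these are 118 genes in 11 lists, of which edgeR called 0, DESeq2 3 and limma-voom 2, while 11 were higher and 10 lower at an unadjusted p under 0.05. Over all genes tested, 1063 (5.86%) were higher and 970 (5.35%) lower at that level. Of the 10 lower genes 6 were among the 13 salicylic acid genes, of which none was higher at that level, 1 was called by limma-voom and the median log2 fold change was -0.40. Medians in pairs 1 to 4 were 0.43, 1.38, -0.46 and 1.16 for camalexin genes and -0.42, 1.24, 0.58 and 0.45 for defensin and ethylene-jasmonate outputs. The camalexin gene CYP71A12 stood at 20.4, 23.3, 569 and 369 CPM in *fer* controls 1 to 4. Where libraries spread this widely, a gene that did not pass is not shown to be unresponsive. ERF2, an ethylene response factor, was at 117, 154, 155 and 164 CPM in the *fer* controls and 118, 135, 135 and 153 with arabidopside A, so the treated libraries lay inside the range of the controls. Its log2 fold change was -0.12 ± 0.10 in *fer* (edgeR adjusted p = 0.708) and 2.15 in WT (edgeR adjusted p = 3.66e-09). ORA59, an integrator of ethylene and jasmonate signals, had 0.57 in *fer*, which did not pass (edgeR adjusted p = 0.172), and 2.55 in WT (edgeR adjusted p = 8.66e-07). Photosynthesis genes had a median of -0.17 in *fer*. None of the 11 passed in edgeR or limma-voom and 1 did in DESeq2, 3 were lower at an unadjusted p under 0.05, and 4 were lower in all 4 pairs.

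Whether *fer* and WT responded differently was tested directly in the same fit. The responses of 53 genes (0.292% of those tested) differed, 52 with a smaller (0.287%) and 1 with a greater log2 fold change in *fer* (0.00552%). All 52 rose in WT, and 16 of the 53 also rose in *fer*. Fits without blocks gave 20 such genes, and leaving out a WT pair gave 24 to 34, while leaving out *fer* pair 3 gave 91 and blocks for the *fer* pairs alone gave 81. FAMT, with a log2 fold change of 5.19 in WT against 1.77 in *fer*, had a difference of -3.42 (95% interval -4.00 to -2.85, edgeR adjusted p = 6.75e-07). ERF2 differed by -2.27 (95% interval -2.64 to -1.90, edgeR adjusted p = 6.75e-07).

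The remaining genes of the 10 that stood out most clearly in this test were AT3G23550, AT4G24350, JAZ5, TAT3, CLH1, DIN11, JAZ1 and AT2G43530, with differences between -3.07 for JAZ5 and -2.01 for JAZ1. AT3G23550, a MATE-type efflux carrier gene, still rose in *fer*, from 115, 153, 169.7 and 169 CPM to 189.6, 247, 250.1 and 234 with no overlap, by 0.61 ± 0.12 on the log2 scale (edgeR adjusted p = 0.0194). DIN11, an oxygenase gene, rose by 0.86 ± 0.14 in *fer* (edgeR adjusted p = 0.00543) and by 3.42 in WT. AT2G43530, a knottin-like gene, had 0.55 in *fer*, which did not pass (edgeR adjusted p = 0.181), and 3.20 in WT. NRT1.5, a nitrate transporter of root xylem loading and the 1 gene with a greater value in *fer*, was named after its values were seen. It had a log2 fold change of -0.59 in *fer* and -1.96 in WT, a difference of 1.38 (95% interval 0.83 to 1.92, edgeR adjusted p = 0.00773). Each log2 fold change is relative to the control of its own genotype, and control levels differed. Mean CPM in WT control, WT treated, *fer* control and *fer* treated libraries was 2.24, 34.8, 66.4 and 121 for JAZ5. It was 1.69, 29.5, 115 and 311 for TAT3, 13.6, 214, 173 and 482 for CLH1, and 260, 1282, 1575 and 1947 for JAZ1. For ORA59 it was 43.5, 247, 171 and 255, and for NRT1.5 it was 73.4, 18.8, 61.7 and 41.1. The part of the control level in the differences was not tested.

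By list, smaller responses in *fer* were found in 5 of 12 JAZ genes, 5 of 16 jasmonate biosynthesis genes and 4 of 14 wound-type outputs, in 2 of 17 ER body genes, in 1 of 27 electrophile genes, and in 0 of the 9 triterpene cluster genes as given above. These counts are read beside the 0.287% of all genes tested, and lists were not compared with each other by a test. The triterpene genes, unlike the other lists, were grouped after their values were seen. At an unadjusted p under 0.05 in edgeR, 4 of these 9 differed. For GSTU5 the difference was -0.47 (95% interval -0.90 to -0.04), for CYP81F4 0.15 (-0.19 to 0.49), for MRN1 -0.09 (-0.80 to 0.62) and for THAS1 -0.83 (-1.29 to -0.36), and none passed after adjustment. Over the 515 genes raised in WT, 483 (93.79%) had a value above 0 in *fer*, where 48.5% of all genes tested did, and their median log2 fold change was 0.49 in *fer* and 1.18 in WT. The WT median comes from genes chosen for their rise in WT.

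**Figure D4:**
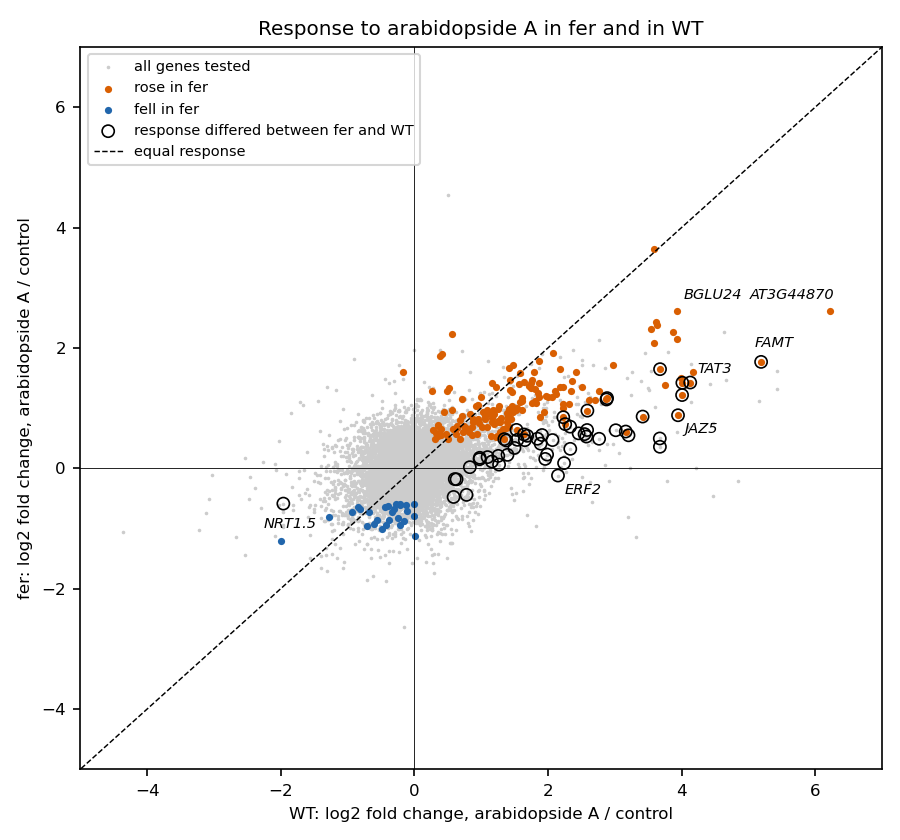
Log2 fold change with arabidopside A in WT on the horizontal axis and in *fer* on the vertical axis for 18132 genes, with raised and fallen genes of *fer* in colour, genes whose responses differed ringed, and a dashed line of equal response. Of the 160 raised genes 124 lie below the line, FAMT lies at 5.19 in WT and 1.77 in *fer*, and ERF2 lies near 0 in *fer*.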

How the data were processed

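QuantSeq 3′ mRNA libraries were made from *fer* and WT seedlings. The authors ran each library again for depth, aligned the reads to TAIR10 with STAR, used SAMtools and HTSeq per their processing notes, and deposited raw counts per gene for 32833 genes. The strand option is not given in the sources used here. Totals were 2843653 to 26358335 counts, and the smaller libraries limit the precision of genes under about 10 CPM.

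Counts were filtered by edgeR's expression filter, which left 18132 genes, scaled by TMM and fitted by robust quasi-likelihood (edgeR 4.0.16, R 4.3.3) over 16 libraries, with 8 same-numbered pairs as blocks and 1 treatment coefficient per genotype, leaving 6 residual degrees of freedom. The SE is the absolute log2 fold change divided by the square root of the F statistic of this fit. The log2 pair values used a prior count of 2. Adjustment was Benjamini-Hochberg over all genes tested. Same-numbered *fer* libraries were taken as pairs because all 4 correlations of their departures exceeded 0.1 (0.186 to 0.61). Unlike numbers within 1 and 2 and within 3 and 4 exceeded it as well (0.308 to 0.694). This minimum thus cannot tell pairing by number from a split of 1 and 2 against 3 and 4. The WT pairs, which the same fit blocks, had correlations of -0.041 to 0.011, so the pairing is not seen in WT. This pairing comes from the numbers in the labels and from the data, and the labels do not say what a number shares. The members, lists and fit were chosen with earlier results of these data known. Named genes were FER, the jasmonate lists, members of other lists, the 15 largest rises and falls at 10 CPM or more that went 1 way in all pairs, and the 10 smallest p for the difference. Others are marked in the text. Within groups, the chi-square per gene was 2.71 or more in all 24 pairs of libraries, where sampling noise alone gives about 1. No library thus looked like a second run of another, and each was counted once. This does not show that the libraries are independent replicates. Whether they come from separate cultures is not given, so p-values measure the spread between these libraries. Alternatives were other blocks, libraries, normalizations and filters, DESeq2 1.42.0, limma-voom (limma 3.58.1) and leaving out each pair. The procedure was tested on simulated data. Promoter windows and names came from TAIR10.1 (RefSeq), whose coordinates are given with the sequences alone, and 32548 identifiers matched.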

Additional observations from a re-analysis of the deposited data

Results flagged for a closer look

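The total of *fer* arabidopside A library 2, 26358335 counts, lay far from those of the other 3 treated *fer* libraries, and thinning it to 4966370 counts gave 180 called genes in place of 187. Of 186 groups of 4 libraries examined for such a gap, 9 had one, where chance alone gives about 1 in 20. In the *fer* controls these were GLL22 in library 2 (88.9 CPM, low), MSRB7 in library 3 (283 CPM, high), AT5G23840 in library 1 (40.01 CPM, high), AT5G38100 in library 1 (2.94 CPM, high) and THAS1 in library 4 (31.6 CPM, low). In the treated *fer* libraries they were AT1G52190 (23.0 CPM, high), TPS04 (26.3 CPM, low) and AT4G29905 (27.1 CPM, high), all in library 1.

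The responses of *fer* and WT differed for 53 genes in the test of the difference itself. On the log2 scale, *fer* minus WT, the JAZ genes had -3.07 (JAZ5), -2.03 (JAZ10), -2.01 (JAZ1), -1.95 (JAZ6) and -1.35 (JAZ3). Jasmonate synthesis genes had -1.72 (AOC1), -1.48 (OPCL1), -1.08 (OPR3), -0.92 (AOC2) and -0.89 (AOS), CYP94C1 had -1.60 and MYC2 -1.36. Among outputs the values were -3.42 for FAMT, -2.79 for AT4G24350, -2.70 for TAT3, -2.59 for CLH1 and -1.88 for VSP2. Other genes had -2.66 (AT2G43530), -2.56 (DIN11), -2.55 (AT3G23550), -2.27 (ERF2), -1.98 (ORA59), -1.73 (AT1G52000) and -1.63 (NRT1.8). NRT1.5 alone had a positive value, 1.38, because its WT value was the lower of the pair. AT5G23840, AT5G38100, AT1G52000, NRT1.8 and NRT1.5 were named after their values were seen.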

How the results depend on the processing

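The genes called in *fer* (187) numbered 69 without the replicate block, 51 with a replicate block shared by both genotypes, 29 in the *fer* libraries with the block and 0 without it, and 82 when an absolute log2 value of 1 or more was also required. With blocks of replicates 1 and 2 against 3 and 4, an alternative chosen after seeing the data, 284 were called, 172 of them among the 187. With blocks for the *fer* pairs and none for WT, also chosen after seeing the data, 353 genes were called in *fer* and 81 differed between the genotypes. Leaving out 1 pair of either genotype gave 60 to 876 genes. The other normalizations, filters, tests and the thinned library gave 159 to 272. Genes whose response differed (53) numbered 20 without the replicate block, 18 with the shared block and 101 in DESeq2, and 24 to 91 with 1 pair left out. The WT count (584), followed after seeing the data, was 357 without the replicate block, 382 with the shared block and 345 when an absolute log2 value of 1 or more was required, and 326 to 895 with 1 pair left out.

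Of the 90 genes called in *fer* and followed by name, the call was kept for 41 without the replicate block, 33 with the shared block, and 22 of 89 and 0 of 89 in the *fer* libraries with and without the block. Without *fer* pair 1, 2, 3 or 4 it was kept for 41, 40, 89 and 70 of the 90. None of the 102 genes followed changed direction under any alternative. DESeq2 kept 88 of 88 and the 3 other normalizations kept 87 each. Leaving out a pair also takes residual degrees of freedom from the fit. The cause of the changes with *fer* pair 3 was not tested. Low depth limits genes of few CPM, such as GSTU22 and LOX5.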

Other observations

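AT1G52000, a mannose-binding lectin superfamily gene named after its values were seen, stood at 106, 68.05, 37.1 and 29.2 CPM in *fer* controls 1 to 4 and at 256, 202, 77.9 and 42.6 with arabidopside A, a rise of 1.14 ± 0.15 on the log2 scale (SE, n = 4 pairs, edgeR adjusted p = 0.00073), and its difference from WT was -1.73 (edgeR adjusted p = 0.00318). AT5G35940 had a difference from WT of -0.54 (95% interval -1.14 to 0.06) that did not pass (edgeR adjusted p = 0.708). PAP7, a purple acid phosphatase gene, rose from 3.73, 3.88, 6.004 and 1.82 CPM to 20.9, 14.96, 14.5 and 7.58 in *fer*, by 1.91 ± 0.29 (edgeR adjusted p = 0.00257), and by 2.08 in WT.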
